A study of Mus musculus with 8 samples.

Results

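Binding of the glucocorticoid receptor (GR) and of FOXO1 was described around 8 genes of the BCL2 family, of 21951 protein-coding genes in the annotation. The genes were the anti-apoptotic members Bcl2l1, Mcl1 and Bcl2, the BH3-only members Bcl2l11, Bbc3, Bid and Bmf, and the BNIP member Bnip3. Merging every overlapping peak of the 6 GR libraries gave 51431 sites, and the 81 sites centred within 50 kb of a start of these genes were taken, beside the FOXO1 regions in the same windows. For each site the libraries with a peak there were recorded, and its rank within each library.

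GR chromatin immunoprecipitation sequencing (ChIP-seq) recovers the DNA to which the receptor is cross-linked. Livers came from male C57BL/6J mice of 3 groups with 2 libraries each, all on chow and collected at lights off. The ctrl. mice were fed at night only, the cal. res. mice received a restricted ration given at lights off, and the CORT mice were fed at night only and were supplemented with corticosterone, the glucocorticoid of rodents. The methods describe daily corticosterone injections with a vehicle arm, and the labels of the ctrl. libraries name night feeding alone. FOXO1, a transcription factor that is held out of the nucleus by insulin signalling, was profiled in cal. res. livers only, as 1 list called on 2 merged libraries. The material was whole liver, so binding in hepatocytes and in other liver cells cannot be told apart.

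BCL2 family proteins decide whether the outer mitochondrial membrane is breached during apoptosis. The anti-apoptotic members hold the pore-forming proteins BAX and BAK in check, and the BH3-only members release that hold when a cell is stressed, starved or signalled through a death receptor. BNIP3 is a distant relative of the outer mitochondrial membrane that recruits the autophagy machinery to mitochondria. In the liver, BCL-XL, the product of Bcl2l1, and MCL1 keep hepatocytes alive, and BIM, the product of Bcl2l11, is a textbook target of FOXO factors.

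Sequence around the GR summit is shown for 1 site of each gene, the one held by cal. res. and overlapping FOXO1 that had the highest mean GR percentile over the libraries with a peak there, since these are the stretches on which the comparison of the 2 factors rests. At Bcl2l11 this choice fell on the site 48.7 kb from the start, which has no peak in ctrl. 2, although the site at 46.4 kb ranked higher in each of the other 5 libraries. For Bcl2, which had no such site, its highest-ranking GR site is shown. Coordinates are mm10, sequences are the plus strand of the GRCm38.p6 reference of RefSeq, and each window is 200 bases around the summit, except for Bmf, where exon bases were left out and 167 bases remained. Capitals mark the forkhead letters TGTTTAC or TATTTAC, or the GR hexamer AGAACA, on either strand.
Bcl2l1, chr2:152806169-152806368, intron: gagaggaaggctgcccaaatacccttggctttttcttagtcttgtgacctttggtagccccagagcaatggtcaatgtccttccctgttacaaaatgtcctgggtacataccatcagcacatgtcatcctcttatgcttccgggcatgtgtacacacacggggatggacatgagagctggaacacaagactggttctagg
Mcl1, chr3:95636051-95636250, intergenic: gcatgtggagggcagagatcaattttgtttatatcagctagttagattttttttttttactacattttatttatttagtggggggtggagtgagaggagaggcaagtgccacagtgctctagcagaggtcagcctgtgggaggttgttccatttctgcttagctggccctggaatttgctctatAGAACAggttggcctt
Bcl2, chr1:106759785-106759984, at the start of Kdsr: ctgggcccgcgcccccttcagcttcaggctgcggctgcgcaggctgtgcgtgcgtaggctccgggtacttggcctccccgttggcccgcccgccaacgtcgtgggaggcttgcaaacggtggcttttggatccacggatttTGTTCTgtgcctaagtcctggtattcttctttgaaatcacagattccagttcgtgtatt
Bcl2l11, chr2:128174216-128174415, intergenic: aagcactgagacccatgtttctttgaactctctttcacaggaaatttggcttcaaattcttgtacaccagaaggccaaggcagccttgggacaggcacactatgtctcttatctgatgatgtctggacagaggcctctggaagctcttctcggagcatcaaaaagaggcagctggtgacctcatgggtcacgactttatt
Bbc3, chr7:16286146-16286345, near the start of Ccdc9: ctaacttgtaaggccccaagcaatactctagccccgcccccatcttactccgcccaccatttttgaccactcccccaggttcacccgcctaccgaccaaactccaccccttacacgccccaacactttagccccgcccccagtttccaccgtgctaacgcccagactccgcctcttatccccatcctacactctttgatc
Bid, chr6:120905187-120905386, intron: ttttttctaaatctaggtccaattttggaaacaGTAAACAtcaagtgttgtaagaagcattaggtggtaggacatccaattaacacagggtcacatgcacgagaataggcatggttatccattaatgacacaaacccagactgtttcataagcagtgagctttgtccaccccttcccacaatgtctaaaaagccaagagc
Bmf, chr2:118547600-118547766, before an alternative start: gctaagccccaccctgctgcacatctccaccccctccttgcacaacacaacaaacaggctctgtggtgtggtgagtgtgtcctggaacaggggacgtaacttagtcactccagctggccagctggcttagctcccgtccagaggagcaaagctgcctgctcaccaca
Bnip3, chr7:138919456-138919655, intergenic: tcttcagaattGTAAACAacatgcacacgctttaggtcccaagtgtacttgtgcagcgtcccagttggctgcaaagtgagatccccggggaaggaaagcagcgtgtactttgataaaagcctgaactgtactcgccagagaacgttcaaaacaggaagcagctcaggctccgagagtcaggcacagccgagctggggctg
Forkhead letters stood in the Bid and Bnip3 windows and the GR hexamer in the Mcl1 and Bcl2 windows. The other 4 windows held neither, which says only that these letters are not there.

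Promoter sequence is shown for the start regions that held the forkhead letters within the 250 bases before an annotated RefSeq start. Promoters of all 8 genes were searched, some with several starts, and none of the others held these letters. Such letters stood in 5.76% of 32851 RefSeq promoters of this length. The Bcl2l11 stretch lay inside the GR site at the gene start, which no FOXO1 region overlapped, whereas the Bbc3 stretch lay inside both a GR site and a FOXO1 region. Both are given on the plus strand, which is the strand of either gene.
Bcl2l11 promoter, chr2:128125788-128126037: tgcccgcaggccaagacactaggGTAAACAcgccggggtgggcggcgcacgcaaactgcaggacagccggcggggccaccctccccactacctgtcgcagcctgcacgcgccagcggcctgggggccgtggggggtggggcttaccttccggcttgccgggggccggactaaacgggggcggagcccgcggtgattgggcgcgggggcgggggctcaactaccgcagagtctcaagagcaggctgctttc
Bbc3 promoter, chr7:16310011-16310260: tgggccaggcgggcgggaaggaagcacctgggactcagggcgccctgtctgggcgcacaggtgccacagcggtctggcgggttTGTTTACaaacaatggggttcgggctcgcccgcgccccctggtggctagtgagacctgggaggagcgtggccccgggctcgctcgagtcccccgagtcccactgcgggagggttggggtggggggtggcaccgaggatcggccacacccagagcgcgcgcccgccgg

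The depth of the libraries was seen only through their peak lists, which held 12458 (ctrl. 2) to 39136 (CORT 2) distinct regions at a largest q-value of 0.0994 to 0.0998. ctrl. 1 held 36234 regions and ctrl. 2 only 12458, so the list length differed more within ctrl. than between cal. res. 1 (22707) and cal. res. 2 (18747). Read counts were not used here, and a site missing from a list is not evidence of missing GR. The heights of different lists were compared only as percentiles of fold enrichment within a list, where 100 is the strongest region of the library. A percentile still moves with the number of weak regions a list contains. The file names of ctrl. 2 and both cal. res. libraries follow one style and those of ctrl. 1 and both CORT libraries another. The labels do not say what the styles mark, and cal. res. against CORT and one style against the other cannot be told apart.

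GR peaks were found near every one of the 8 genes, which is common. Bcl2 had the fewest sites, 2, a number that 61.7% of protein-coding genes reached, and the median gene had 3. A site counted as held by a group if it was called in replicate 1 and in replicate 2. ctrl. held 26 of the 81 sites (32.1%), cal. res. 33 (40.7%) and CORT 49 (60.5%). Among the 38340 sites within 50 kb of any protein-coding gene start, ctrl. held 23.3%, cal. res. 28.1% and CORT 45.4%, so the sites of the BCL2 family were held more often in each of the groups. The order of the groups was the same near these genes as near all protein-coding genes. It followed the length of the shorter list of each group. ctrl., cal. res. and CORT all held 20 of the 81 sites, and 23 sites had a peak in 1 library, 14 of them in CORT 2, the longest list. For these last counts the shares over all sites near protein-coding genes were not computed.

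cal. res. held 13 sites that ctrl. did not (16% of 81, against 10.7% of the 38340 near protein-coding genes). CORT held 25 such sites (30.9%, against 24.5%). Most of these sites were not free of GR in ctrl. livers. Of the 13 cal. res. sites, 10 had a peak in ctrl. 1 and lacked one in ctrl. 2 (76.9%, against 92% near all protein-coding genes). A further 2 had a peak in ctrl. 2 alone, and 1 had no peak in ctrl. 1 or ctrl. 2. Among the 25 CORT sites, 17 had a peak in ctrl. 1, 2 in ctrl. 2 and 6 in neither. The matching split over all sites was not computed for CORT. Both comparisons used the same ctrl. libraries. With ctrl. 1 alone standing for ctrl., cal. res. added 3 sites and CORT 8. With the 12458 regions of smallest p-value from each list, ctrl. held 20 sites, cal. res. 24 and CORT 22, so CORT no longer led. Equal cuts also take away any real difference in the number of bound sites, so the source of the CORT lead was not tested. With the full lists, all 33 sites held by cal. res. were also held by CORT. A further 16 sites were held by CORT and not by cal. res., and 6 were held by ctrl. and not by cal. res. Shares over all sites were not computed for these overlaps. With 12458 regions per list, cal. res. held 5 Bcl2l11 sites and CORT 3, so not every cal. res. site was then held by CORT.

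**Figure D1:**
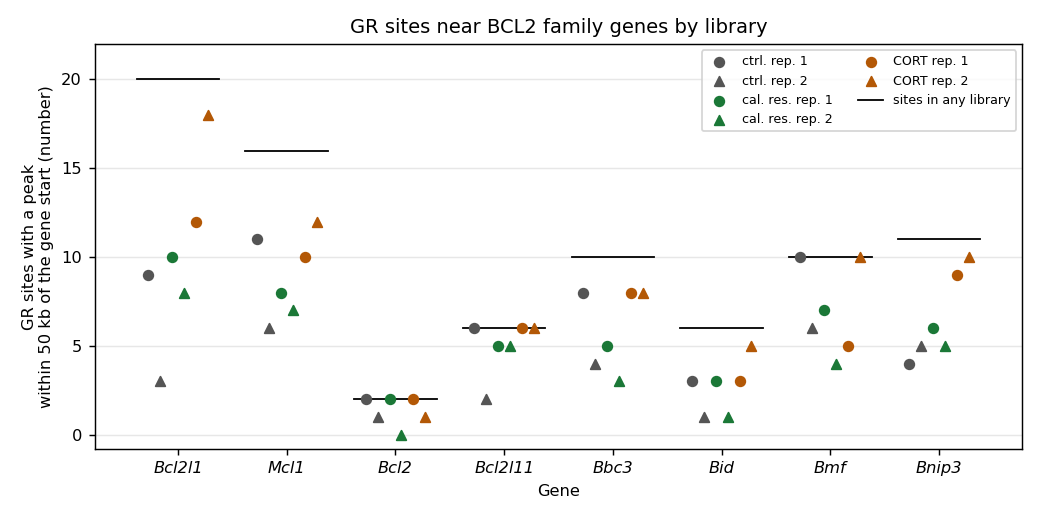
Number of GR sites within 50 kb of the gene start that had a peak in each library, one column of points per gene (circles, replicate 1; triangles, replicate 2; the bar is the number of sites found in any library). Bcl2l1 ranged from 3 sites in ctrl. 2 to 18 in CORT 2, while Bcl2 never had more than 2.

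Bcl2l1, which encodes BCL-XL, had the most GR sites when all libraries were merged, 7 of them called in CORT 2 alone. In ctrl. 1 and ctrl. 2 Mcl1 had more peaks, and with lists of equal length both genes had 9 sites. Bcl2l1 (ENSMUSG00000007659.18, chr2:152780668-152831728, minus strand) had 20 sites, a number that 1.26% of protein-coding genes reached, where the median gene had 3. ctrl. held 3 of them, cal. res. 8 and CORT 11. At equal list length these numbers were 3, 6 and 6. Of the 20, all but 1 lay inside the gene, and the other lay 16.2 kb upstream at the start of Tpx2. Peaks were found at 9 sites in ctrl. 1, 3 in ctrl. 2, 10 in cal. res. 1, 8 in cal. res. 2, 12 in CORT 1 and 18 in CORT 2.

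The strongest Bcl2l1 site (chr2:152805176-152806849) lay in an intron 25.7 kb from the gene start and overlapped a FOXO1 region. Its percentile was 97.5 in ctrl. 1, 88 in ctrl. 2, 98.6 in cal. res. 1, 97.4 in cal. res. 2, 99.1 in CORT 1 and 99.4 in CORT 2. The fold enrichment at its summit was 23.2 and 7.5 in ctrl., 39.3 and 22.8 under cal. res., and 40.9 and 56.4 in CORT. GR therefore ranked near the top of every list, and cal. res. overlapped ctrl., with a difference of 5.28 percentile points (cal. res. 98 ± 0.866, ctrl. 92.8 ± 6.71, SD, n = 2; exact permutation p = 0.667, two-sided). With 2 libraries against 2, the smallest p-value such a test can give is 0.333, so none of the site comparisons could pass a threshold of 0.05.

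A site toward the other end of the gene was the one where cal. res. ranked farthest above ctrl. among the 20 sites with a peak in all libraries. It lay in an intron 46.3 kb from the start (chr2:152784426-152786498), nearer to the start of Cox4i2 than to that of Bcl2l1, and overlapped 2 FOXO1 regions. GR stood at percentile 67.1 in ctrl. 1 and 45.5 in ctrl. 2, at 92.4 and 93.6 under cal. res., and at 99.7 and 99.6 in CORT. Both cal. res. libraries ranked above both ctrl. libraries, by 36.7 points on average, and both CORT libraries ranked higher still (exact permutation p = 0.333 for each pair of groups). The higher of the FOXO1 regions there stood at percentile 86.6 of the FOXO1 list, the highest among the regions near Bcl2l1.

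At the start of Bcl2l1, 0.783 kb downstream, CORT stood apart. The percentile was 97.6 in both CORT libraries, 79.5 and 28.5 in ctrl., and 78.4 and 34.3 in cal. res. CORT lay above both other groups without overlap, and cal. res. and ctrl. overlapped almost completely (difference 2.37 points, exact permutation p = 1). No FOXO1 region overlapped this site.

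cal. res. held 5 Bcl2l1 sites that ctrl. did not, a number that 0.515% of protein-coding genes reached. With lists of equal length there were 3, as many as at Bcl2l11. Ranks at these sites were mid-range and spread widely between libraries. In an exon 3.33 kb downstream, at a FOXO1 region of percentile 26, GR stood at 75.4 in ctrl. 1, 65.1 and 30 under cal. res., and 74 and 72.1 in CORT. The intron site 17.1 kb downstream, which also overlapped FOXO1, had 72.7 in ctrl. 1, 83.4 and 76.7 under cal. res., and 63.8 and 88.8 in CORT. At this site both cal. res. libraries ranked above the only ctrl. library with a peak.

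The other 3 of these Bcl2l1 sites had no FOXO1 region. The site 11.2 kb downstream (chr2:152820263-152820825) was, near all 8 genes, the one site held by cal. res. that had no peak in either ctrl. library, with percentiles of 60.4 and 70.1 under cal. res. and of 74.5 and 91 with CORT. At 19.9 kb GR stood at 53.8 in ctrl. 1, 73.2 and 49.5 under cal. res., and 53.4 and 80 in CORT. At 27.2 kb it stood at 30.8 in ctrl. 1, 28.7 and 38.3 under cal. res., and 55.4 and 79.9 in CORT. All 5 sites were held by CORT too.

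**Figure D2:**
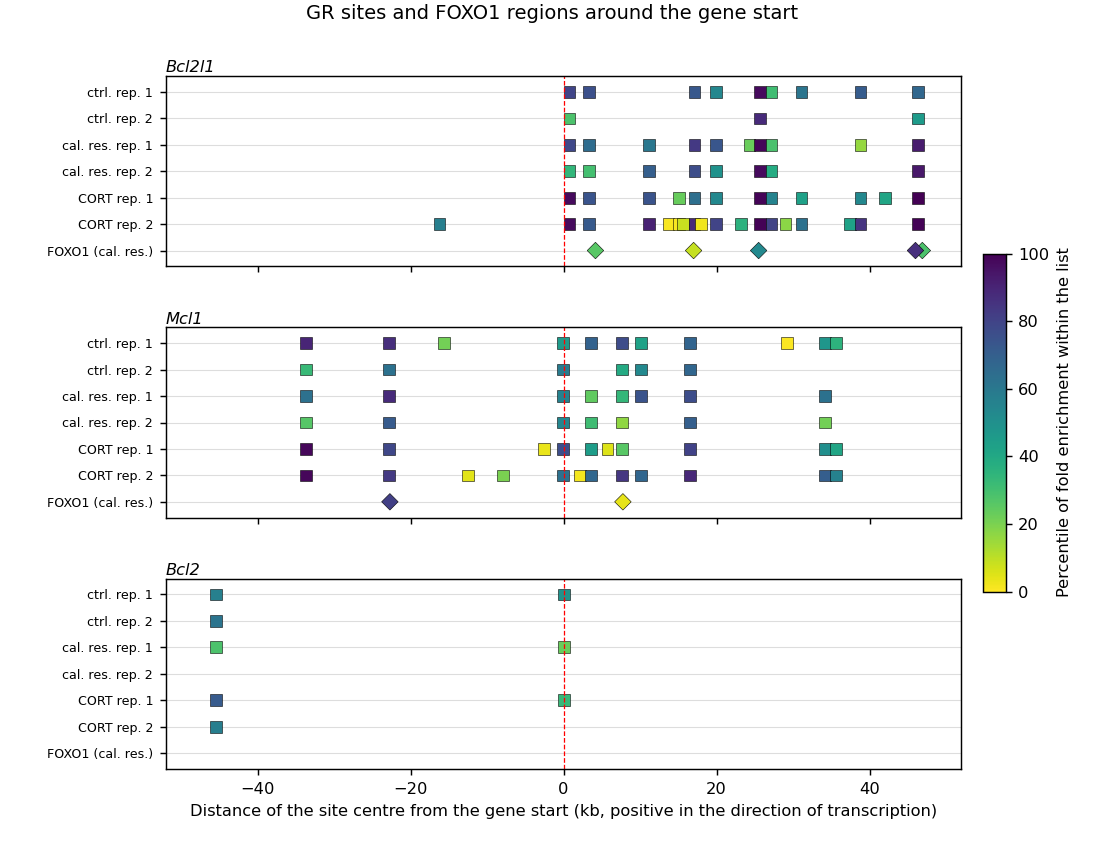
GR sites (squares, one row per library) and FOXO1 regions (diamonds) around the starts of Bcl2l1, Mcl1 and Bcl2, by distance from the gene start in kb, coloured by percentile of fold enrichment within the list. Bcl2l1 had 20 sites, almost all downstream of its start, Mcl1 16 on both sides, and Bcl2 2 and no FOXO1 region.

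Mcl1, whose short-lived product protects hepatocytes, had 16 sites (ENSMUSG00000038612.16, chr3:95658788-95663176, plus strand). ctrl. held 6, cal. res. 7 and CORT 8, and all 3 groups held 5 in common, and with lists of equal length each group held 3. Libraries had 6 (ctrl. 2) to 12 (CORT 2) peaks in the window. Several sites lay beside the neighbouring genes Ensa and Adamtsl4.

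The strongest Mcl1 site was intergenic, 22.8 kb upstream (chr3:95635497-95636484), and nearer to the start of Ensa than to that of Mcl1. It overlapped a FOXO1 region at percentile 81.5 of its list. GR stood at percentile 86.9 in ctrl. 1, 62.6 in ctrl. 2, 88.1 in cal. res. 1, 71.6 in cal. res. 2, 78.9 in CORT 1 and 82.9 in CORT 2. The groups overlapped, and cal. res. differed from ctrl. by 5.13 points and from CORT by -1.03 points.

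The start of Mcl1 had a peak in all 6 libraries, with percentiles of 45.7 and 58.8 in ctrl., 55.6 and 54.2 under cal. res., and 76.3 and 63.2 in CORT. Both CORT libraries ranked above the other 4 there. A site 16.5 kb downstream, nearer to the start of Adamtsl4, had the same order. GR stood there at 68 and 67.2 in ctrl., 76.9 and 70.1 under cal. res., and 80.4 and 88.7 in CORT. At this site cal. res. did not overlap ctrl. either. The site at the start of Ensa, 33.7 kb upstream of Mcl1, stood at 89.8 and 32.8 in ctrl., 62.9 and 26.3 under cal. res., and 98.1 and 98.3 in CORT.

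A second FOXO1 region lay 7.76 kb downstream of Mcl1, at percentile 3.58 of the FOXO1 list. GR ranked lower there under cal. res. (33.7 and 16.6) than in ctrl. (77 and 39.4), while CORT spanned both (26.1 and 84.3). cal. res. held 2 Mcl1 sites that ctrl. did not. One lay in an exon 3.58 kb downstream and had percentile 68.8 in ctrl. 1, 24.3 and 31 under cal. res., and 44.6 and 66.8 in CORT. The other lay 34.2 kb downstream, nearer to Adamtsl4, with 47.5 in ctrl. 1, 62.6 and 21.3 under cal. res., and 50.7 and 70.5 in CORT. In neither case did cal. res. 2 reach the rank of ctrl. 1.

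Bcl2, the founding member, had only 2 sites (ENSMUSG00000057329.7, chr1:106538178-106714274, minus strand), a number reached by 61.7% of genes. cal. res. held neither, and no FOXO1 region lay within 50 kb of its start. The stronger site lay 45.4 kb upstream at the start of Kdsr, with percentiles of 56.8 and 61.5 in ctrl., 28.5 in cal. res. 1 and no peak in cal. res. 2, and 71.6 and 57.6 in CORT. At the start of Bcl2 itself, GR peaks were called in ctrl. 1 (48.7), cal. res. 1 (22.9) and CORT 1 (33), and in no second library of any group. Only the first 50 kb of this long gene were covered.

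Bcl2l11 encodes BIM, a BH3-only protein that binds every anti-apoptotic member. Its 6 sites (ENSMUSG00000027381.16, chr2:128126038-128162547, plus strand) were all held by CORT, 5 of them by cal. res. and 2 by ctrl. ctrl. 1, however, had a peak at all 6, and ctrl. 2 at 2. With lists of equal length ctrl. held 2, cal. res. 5 and CORT 3. The 3 sites that cal. res. held and ctrl. did not thus turned on ctrl. 2, and all 3 had a peak in ctrl. 1. An intron site 1.71 kb downstream had a peak in all libraries, at 80.2 and 10 in ctrl., 72 and 57.1 under cal. res., and 85.2 and 41.1 in CORT, and the groups overlapped.

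The site at the Bcl2l11 start (chr2:128125555-128126379), which contained the promoter stretch shown above, was held by cal. res. and CORT. Its percentile was 65.4 in ctrl. 1, 73.2 and 75.1 under cal. res., and 76.7 and 74.7 in CORT, with no peak in ctrl. 2. The 4 libraries of cal. res. and CORT lay close together, and ctrl. 1 lay below them.

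A group of 3 sites lay beyond the 3′ end of the gene, 43.7, 46.4 and 48.7 kb from its start. The middle one (chr2:128172070-128172763) was the strongest Bcl2l11 site, with percentiles of 95.1 and 36.8 in ctrl., 91.5 and 92.1 under cal. res., and 88.8 and 91.4 in CORT. It was called in all libraries, and ctrl. 1 and ctrl. 2 lay on either side of the other 4. The outermost one (chr2:128174023-128175426) was held by cal. res. and not by ctrl., at 86.3 in ctrl. 1, 88.5 and 85.5 under cal. res., and 84.5 and 80 in CORT. FOXO1 regions overlapped these 2 sites, at percentiles 73.7 and 51.4 of the FOXO1 list, while the innermost site had no FOXO1 region and stood at 74.7 in ctrl. 1, 76.3 and 70.5 under cal. res., and 64.3 and 54.6 in CORT. Both sites with FOXO1 ranked above the one without it in each of the 5 libraries that had peaks at all of them.

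Bbc3 encodes PUMA, the BH3-only protein best known as a p53 target. The gene (ENSMUSG00000002083.13, chr7:16308393-16318205, plus strand) had 10 sites, of which ctrl. held 4, cal. res. 3 and CORT 7. No Bbc3 site was held by cal. res. and not by ctrl., whereas CORT held 3 such sites. With lists of equal length ctrl. held 3, cal. res. 2 and CORT 2, and this contrast turned, with 1 such site for cal. res. and 0 for CORT. The strongest site lay 22.2 kb upstream, near the start of Ccdc9 (chr7:16285491-16286879), and overlapped a FOXO1 region. Its percentiles were 72.8 and 52.2 in ctrl., 70.9 and 33.8 under cal. res., and 84.8 and 88.1 in CORT. CORT ranked above both other groups without overlap, by 23.9 points over ctrl. (86.4 ± 2.32 against 62.5 ± 14.6, SD, n = 2, exact permutation p = 0.333), and cal. res. and ctrl. overlapped.

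The site nearest the Bbc3 start, 1.84 kb downstream (chr7:16309244-16311220), contained the forkhead letters printed above and a FOXO1 region at percentile 58.2. GR stood there at 66.8 and 48.7 in ctrl., at 48.1 in cal. res. 1 without a peak in cal. res. 2, and at 71.1 and 23.6 in CORT. So FOXO1 was called in cal. res. livers at a Bbc3 start where only one of the cal. res. libraries had a GR peak. In the intron, 5.15 kb from the start, GR ranked at 76.1 and 53.5 in ctrl., 49.4 and 7.19 under cal. res., and 77.3 and 69 in CORT, and both cal. res. libraries lay below the other 4. The remaining FOXO1 region lay 12.3 kb downstream in an exon of Sae1, where GR peaks were found in ctrl. 1 and both CORT libraries and in neither cal. res. library.

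Bid, which caspase-8 cleaves to carry death receptor signals to mitochondria, had 6 sites (ENSMUSG00000004446.12, chr6:120891930-120916853, minus strand). ctrl. and cal. res. held 1 each, and CORT held 3, or 1 with lists of equal length. At the start of Bid, GR peaks were called in ctrl. 1 (percentile 48.7) and in CORT (58.4 and 76.1) and in neither cal. res. library. The cal. res. site lay in an intron 11.6 kb downstream (chr6:120904993-120905596), carried the forkhead letters shown above, and overlapped a FOXO1 region at percentile 18.8. GR stood there at 81.6 in ctrl. 1, 49.5 and 64.4 under cal. res., and 7.31 and 57.6 in CORT. This was a site where ctrl. 1 ranked above the other 4 libraries with a peak. The strongest Bid site, 13 kb downstream, had peaks in 5 libraries, at 87.4 and 48.7 in ctrl., 78.8 in cal. res. 1, and 61.7 and 78.4 in CORT.

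**Figure D3:**
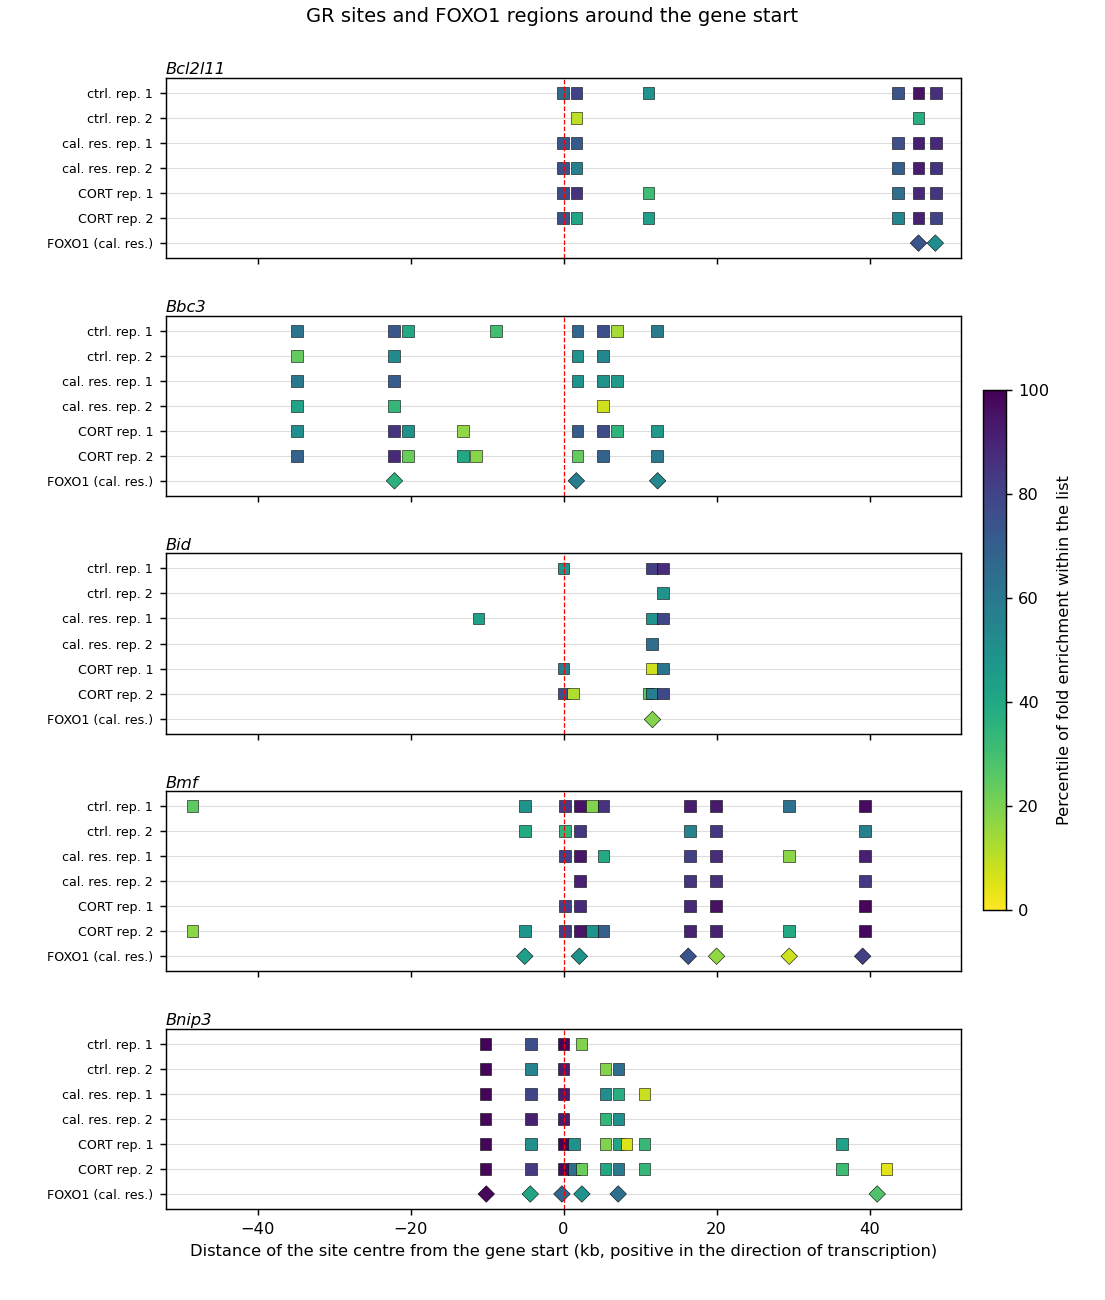
GR sites (squares, one row per library) and FOXO1 regions (diamonds) around the starts of Bcl2l11, Bbc3, Bid, Bmf and Bnip3, by distance from the gene start in kb, coloured by percentile of fold enrichment within the list. Bmf and Bnip3 had 6 FOXO1 regions each. In every library except CORT 1 the darkest square stood 10.2 kb upstream of Bnip3. In CORT 1 the square at the Bnip3 start was darker (99 against 98.8).

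Bmf, a BH3-only protein tied to the cytoskeleton until cells detach or are stressed, had the most GR sites of any library that overlapped FOXO1, with 6. Counting sites held by cal. res. only, Bmf, Bcl2l1 and Bnip3 had 4 each. Its window (ENSMUSG00000040093.15, chr2:118528757-118549687, minus strand) had 10 GR sites and 6 FOXO1 regions, a number of FOXO1 regions that 0.938% of protein-coding genes reached. All 6 FOXO1 regions overlapped a GR site. cal. res. held 4 sites, every one of which overlapped FOXO1, while ctrl. held 6 and CORT 5. cal. res. held no Bmf site that ctrl. did not, and 2 sites of ctrl. were not held by cal. res.

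The strongest Bmf site (chr2:118547108-118547997) lay 2.13 kb downstream of the gene start, over an alternative start of Bmf. GR stood at 95.5 and 83.9 in ctrl., 94.2 and 90.7 under cal. res., and 88.3 and 94.8 in CORT. The groups overlapped in all pairs, with differences of 2.74 points for cal. res. and 1.84 for CORT against ctrl. At the first start, 0.172 kb away, the percentiles were 82.7 and 34.5 in ctrl., 81.2 in cal. res. 1, and 80.2 and 81.7 in CORT. cal. res. 2 had no peak there.

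The other Bmf sites held by cal. res. lay 16.5, 19.9 and 39.4 kb downstream. The first had percentiles of 92.3 and 55.4 in ctrl., 80.8 and 84.8 under cal. res., and 88.6 and 90.6 in CORT. The site 19.9 kb downstream, in an exon of Bmf, had 93.3 and 83.9 in ctrl., 87.7 and 86.1 under cal. res., and 95.6 and 90.6 in CORT. The farthest, which was nearer to Srp14, had 97 and 56.3 in ctrl., 90.9 and 83.5 under cal. res., and 98.2 and 97.8 in CORT. At each of these sites both cal. res. libraries ranked below both CORT libraries and between those of ctrl.

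Bnip3, which marks mitochondria for autophagy, had the site with the highest mean GR percentile among the 8 genes. The gene (ENSMUSG00000078566.8, chr7:138890836-138909519, minus strand) had 11 sites, of which ctrl. held 3, cal. res. 5 and CORT 8, and 6 FOXO1 regions. With lists of equal length the GR numbers were 3, 3 and 2. The strongest site was intergenic, 10.2 kb upstream (chr7:138918931-138920497), with percentiles of 99.3 and 98.7 in ctrl., 98.8 and 98.1 under cal. res., and 98.8 and 98.3 in CORT. Its fold enrichment ranged from 18.5 in ctrl. 2 to 41.9 in cal. res. 1. No group stood apart from another there. The FOXO1 region at this site had a fold enrichment of 20.2 and stood at percentile 98.4, the highest of the 25 FOXO1 regions near the BCL2 family, and the forkhead letters shown above lay in its summit window.

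The Bnip3 start (chr7:138908938-138910133) also bound GR in every library and overlapped a FOXO1 region at percentile 67.2. The GR percentiles were 98.7 and 91.7 in ctrl., 92.3 and 92.9 under cal. res., and 99 and 97.2 in CORT, with cal. res. below CORT and within the range of ctrl. Between these sites, 4.22 kb upstream, the order differed. There GR stood at 76 and 54.9 in ctrl., 79.7 and 91.2 under cal. res., and 50.3 and 82.7 in CORT, and both cal. res. libraries ranked above both ctrl. libraries (85.5 ± 8.08 against 65.4 ± 14.9, SD, n = 2, difference 20 points, exact permutation p = 0.333). A FOXO1 region at percentile 41.3 overlapped this site as well.

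cal. res. held 2 Bnip3 sites that ctrl. did not, both in introns and both called in ctrl. 2 and missing from ctrl. 1, the longer list. With lists of equal length there were 0. The one 5.47 kb downstream had 18.5 in ctrl. 2, 51.2 and 34.2 under cal. res., and 18.8 and 40.3 in CORT. The other, 7.2 kb downstream and overlapping a FOXO1 region, had 64.1 in ctrl. 2, 37.2 and 49.5 under cal. res., and 41.2 and 59.1 in CORT. A site 1.37 kb downstream was called in CORT alone (49.8 and 63.8).

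**Figure D4:**
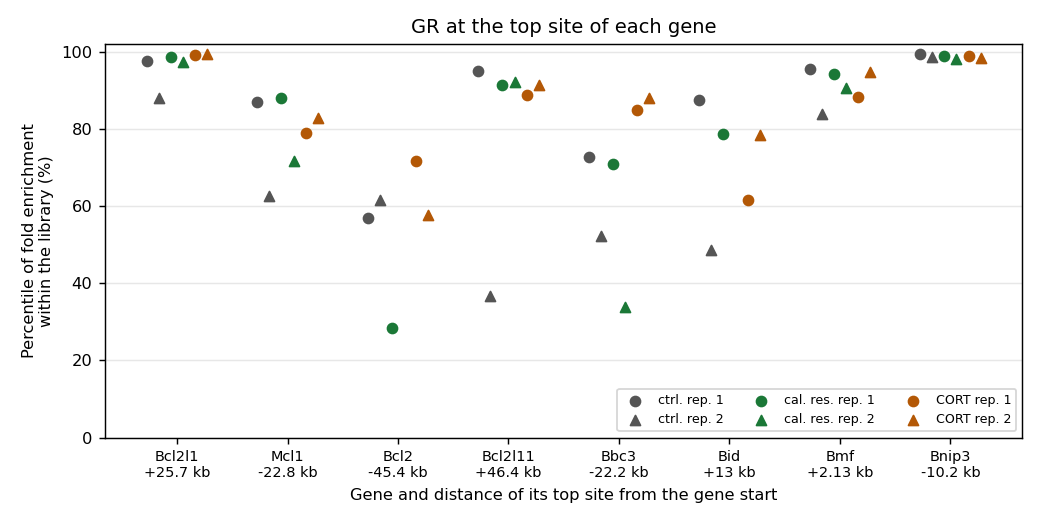
Percentile of GR fold enrichment within each library at the highest-ranking site of each gene, with the distance of the site from the gene start under the gene name (circles, replicate 1; triangles, replicate 2). Bnip3 stood above 98 in all 6 libraries, whereas ctrl. 2 lay far below the other libraries at Bcl2l11, and Bcl2 and Bid had no peak in cal. res. 2.

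Over the 20 sites with a peak in all 6 libraries, GR ranks under cal. res. overlapped those of ctrl. at 15. Both cal. res. libraries ranked above both ctrl. libraries at 3 sites and below them at 2. Of 6404 such sites within 50 kb of any protein-coding gene start, 10.2% lay above and 23.4% below. The sites above were those 46.3 kb from the Bcl2l1 start, 16.5 kb from the Mcl1 start and 4.22 kb upstream of Bnip3, and those below were 7.64 kb downstream of Mcl1 and 5.15 kb downstream of Bbc3. The median difference was 3.94 points for the BCL2 family and -0.646 for the 6404 sites.

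CORT ranked above ctrl. without overlap at 8 of the 20 sites and below it at none. Of the 6404 sites near protein-coding genes, 28.2% lay above and 4.79% below. The 8 sites were 3 of Bcl2l1, 3 of Mcl1, 1 of Bbc3 and 1 of Bmf. The median difference was 16.4 points, against 8.44 for the 6404 sites. Set against CORT, cal. res. ranked lower without overlap at 12 sites and higher at 1, the strongest Bcl2l11 site, by 1.68 points. Of the 6404 sites, 50% lay lower and 7.28% higher. The median difference was -6.71 points near the BCL2 family and -9.11 over the 6404 sites, the same direction.

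FOXO1 regions were found near 7 of the 8 genes, all but Bcl2. There were 25 regions in all, of which 19 (76%) overlapped a site held by cal. res., against 75.9% of the 5851 FOXO1 regions near protein-coding genes. A GR site of some library was overlapped by 24 of the 25, and the one without a GR site lay 41 kb downstream of Bnip3. The share of all FOXO1 regions that overlap a GR site of some library was not computed, so the 24 cannot be set against it. In the other direction, 18 of the 33 sites held by cal. res. overlapped FOXO1 (54.5%), against 38.3% of the 10787 such sites near protein-coding genes. The share was 4 of 4 at Bmf and 4 of 5 at Bnip3, 4 of 8 at Bcl2l1, 2 of 7 at Mcl1, 2 of 5 at Bcl2l11, 1 of 3 at Bbc3 and 1 of 1 at Bid. Of the 23 GR sites that overlapped FOXO1, 5 were not held by cal. res., 2 of them at Bbc3, 2 at Bmf and 1 at Bnip3.

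Sites of the BCL2 family that overlapped FOXO1 ranked higher for GR than the others in each library. The median percentile was 79.3 for 22 sites with FOXO1 and 53.8 for 31 sites without it in ctrl. 1, and 55.8 against 41.6 in ctrl. 2. In cal. res. 1 it was 85.5 for 20 sites and 57.9 for 26, and in cal. res. 2 it was 85.2 for 18 and 42 for 15. CORT 1 had 84.6 against 50.7 and CORT 2 had 84.3 against 54.6. The gap was 14.2 to 43.2 points near these genes and 29.9 to 42 points over all sites, and it was present in ctrl. and CORT livers, where FOXO1 was not profiled, as in cal. res.

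**Figure D5:**
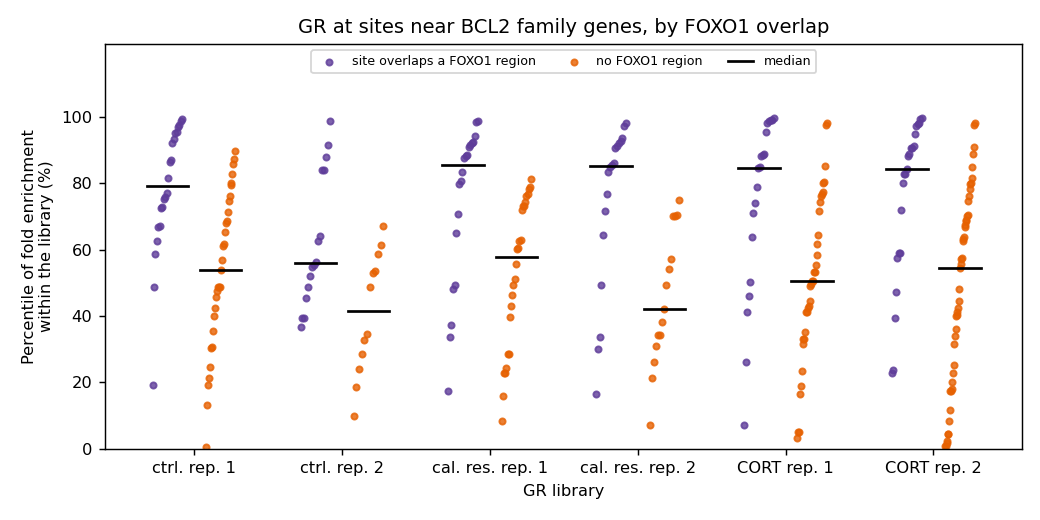
Percentile of GR fold enrichment within each library for every site near the 8 genes that had a peak there, split by overlap with a FOXO1 region of cal. res. livers (purple, overlap; orange, none; black bar, median). The median of the sites with FOXO1 was higher in each of the 6 libraries, and the ranges overlapped in all of them.

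Known letters were looked for in the 200 bases around each summit, on both strands. The exact palindrome of the glucocorticoid response element, AGAACA and TGTTCT separated by 3 bases, was found at 0 of the 81 sites and in 0.0642% of all 51428 windows. Elements that depart from these letters were not scored, so the 0 does not mean that response elements are absent. The study's own motif search reported such elements in each of its GR peak sets. The single hexamer AGAACA was found at 15 of the 81 sites, against 18.4% of all windows. Forkhead letters stood at 12 of the 81 sites and at 6 of the 33 held by cal. res., against 8.72% of all windows and 10.6% of all windows held by cal. res. The STAT letters, TTC and GAA separated by 3 bases, stood at 6 sites (8.16% of all windows), and the C/EBP letters, TTGC and AA separated by 2 bases, at 13 (15.1%). The E-box CACGTG stood at 5 sites (4.72%) and the HNF4 letters CAAAGTCCA at 0 (1.47%). These short patterns overlap in part, and a match is not a bound site.

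Sites held by cal. res. were more numerous near these genes than near the other genes of the apoptosis pathway. Sites held by cal. res. lay near 7 of the 8 genes (87.5%) and near 32 of 42 other apoptosis genes (76.2%), against 47.2% of all protein-coding genes, with a median of 4.5 and 1.5 sites. A site held by cal. res. and not by ctrl. was found near 5 of 8 and 20 of 42 genes (27.1% of all genes). FOXO1 regions lay near 7 of 8 and 19 of 42 (33.3% of all genes), and a cal. res. site that overlapped FOXO1 near 7 of 8 and 17 of 42 (25.4%). The 8 genes were chosen with results of these data known, so these counts carry no test.

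Among the other 42, the genes with the most sites held by cal. res. were Endog, a mitochondrial nuclease, with 8, and Bad, a BH3-only protein inactivated by insulin and survival signalling, with 7. Birc5, an inhibitor of apoptosis that acts in cell division, and the executioner caspase gene Casp6 had 5 each, and Bax, a pore-forming effector, had 4. ctrl. held 7 sites near Endog, 5 near Bad, 3 near Birc5, 3 near Casp6 and 5 near Bax. CORT held 14, 11, 8, 5 and 6 in the same order. Of the other pore-forming effectors, named here after their values were seen, Bok had 3 sites held by cal. res. and 0 held by ctrl., and Bak1 had 1 and 0. The remaining anti-apoptotic genes, Bcl2l2, Bcl2l10 and the 3 Bcl2a1 copies, had cal. res. sites near 2 of 5 and no FOXO1 region. The Bcl2a1 copies are near-identical, and multimapping reads had been removed, so their counts are uncertain.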

How the data were processed

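The study mapped reads to mm10 with BWA, removed duplicates and multimapping reads, called peaks in each GR library on its own with MACS2 and removed blacklisted regions. An input control is not given in the sources used here. FOXO1 peaks were called on the merged reads of 2 libraries at a stricter q cut-off. Peak lists as deposited give fold enrichment, a ratio of the summit pileup to the local background, and −log10 p-values and q-values. None of the peak rows (0) ended beyond a reference chromosome. Rows with the same start and end were reduced to the highest, regions sharing at least 1 base were merged into sites, and a site took the highest percentile of a library in it. Gene starts were those of GENCODE M21, and a site within 1 kb of an annotated start was placed there. Python 3.11.15, NumPy 2.4.6, pandas 2.3.3, pysam 0.24.0 and matplotlib 3.10.9 were used. Merging was tested on 4000 simulated sites (100% recovered). These lay too far apart to touch, so the joining of close neighbours was not tested. Percentiles were compared by two-sided exact permutation tests over libraries. The methods state separate biological replicates.

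The genes, lists and tests were chosen with earlier results of these data known. Sites described are, per gene, the one with the highest mean percentile among those with peaks in most libraries, the one nearest the start, and those held by cal. res. that ctrl. lacked or that overlapped FOXO1, plus sites whose ranks did not overlap between groups. Of the other apoptosis genes, the 5 with the most sites held by cal. res. were named, ties by symbol. Alternatives were other q-value, fold and window limits, a gap of 100 bp, equal numbers of regions, either library sufficing, ranking by p-value or by row, leaving out each library, and a replicate block.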

Additional observations from a re-analysis of the deposited data

How the results depend on the processing

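Of the 85 counts recomputed under other settings, 72 stayed within 1.5 times the values given and 13 did not. At q-values of at most 1e-05, ctrl. held 12 sites. With fold enrichment of at least 5, ctrl. held 8 and cal. res. 21. Where either library sufficed, ctrl. held 55 sites, CORT 76, and cal. res. held 4 that ctrl. did not. With the 12458 regions of smallest p-value from each list, CORT held 22 sites and added 6 to ctrl., while cal. res. held 24 and added 10, so the order of cal. res. and CORT turned. Leaving out each library in turn gave 26 to 53 sites for ctrl. (53 without ctrl. 2), 3 to 21 held by cal. res. and not by ctrl. (3 without ctrl. 2, 21 without cal. res. 2), and 8 to 44 held by CORT and not by ctrl. (8 without ctrl. 2, 44 without CORT 1). The cause of these shifts was not tested.

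At the highest-ranking sites, 147 of 168 recomputed differences kept their direction and 21 turned. Ranked by p-value, cal. res. minus CORT was 0.104 at Mcl1. With equal numbers of regions, CORT minus ctrl. was -14 at Mcl1 and -7.46 at Bmf, and cal. res. minus CORT was 19.6 at Mcl1 and 1.6 at Bnip3. Leaving out each library, cal. res. minus ctrl. ranged from -7.02 to 17.3 at Mcl1, -3.33 to 55 at Bcl2l11, -28.7 to 8.43 at Bbc3 and -3.08 to 8.55 at Bmf. CORT minus ctrl. ranged from -5.99 to 18.3 at Mcl1, -5.02 to 53.3 at Bcl2l11 and -3.97 to 7.66 at Bmf. cal. res. minus CORT ranged from -9.3 to 7.24 at Mcl1, -2.32 to 4.12 at Bmf and -0.442 to 0.288 at Bnip3.

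Same-numbered libraries showed little common deviation (correlations of -0.0468, -0.125 and 0.0737 over 8097 sites for cal. res. with ctrl., CORT with ctrl. and cal. res. with CORT). These correlations cannot tell whether same-numbered libraries shared a run or a batch, which the labels do not state. With the replicate block the differences are the same by construction (5.28 for cal. res. minus ctrl. at Bcl2l1), and 0 of 18 exact permutation tests passed 0.05, with 0.5 the smallest p-value possible. Crossed numbers for CORT and ctrl., added after seeing the data, gave 0 of 6.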
